A study of Mus musculus with 8 samples.

Results

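The genes described here are the mouse chromosome 16 counterparts of genes in the human DiGeorge (22q11) deletion interval, the neighbours of Tbx1 on its own chromosome. The list holds 30 genes, taken by symbol from the 55487 gene rows of the count table, with Tbx1 itself left out. All 30 were found as single rows on chromosome 16. The question they address is whether the neighbours of a mutated locus change together with it.

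In people, 1 copy of this interval is lost, and its genes are therefore present at a lower dose. Tbx1 encodes a T-box transcription factor of the pharyngeal and second heart field mesoderm, and its loss accounts for much of the heart phenotype in mouse models. Several neighbours have roles of their own: Crkl is a signalling adaptor linked to heart and kidney defects, Hira deposits a histone variant, Dgcr8 is the partner of Drosha in microRNA processing, and Cldn5 seals endothelial tight junctions. A mutation confined to Tbx1 leaves the neighbours in place, which sets such a line apart from a deletion of the interval.

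The compared cells were the parental E14-Tg2a line, a mouse embryonic stem cell line labelled WT, and its derivative 4D, labelled Tbx1-/-. Both had spent 6 days in serum-free differentiation towards precardiac mesoderm, and no other allele, drug or agent is named for either group. There were 4 libraries per line, described as biological replicates, and every mutant library came from line 4D, so that the genotype and other properties of that line cannot be told apart. The labels do not say how the Tbx1 allele was made or which bases it removed. RNA was measured by QuantSeq, which counts transcript 3′ ends, so a level in CPM (counts relative to the TMM-scaled library size) does not grow with transcript length.

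Depth was 3803561 to 6293907 counts per library. All 14 cardiac mesoderm markers were present in both lines, with summed levels of 1647 to 2889 CPM in the parental and 1659 to 1773 CPM in mutant libraries. The median log2 fold change of these 14 was -0.65, 4 were positive, and edgeR called 1, Gata6, higher. Primitive erythroid markers summed to 114 to 167 CPM in parental libraries and 607 to 888 CPM in the mutant ones, with all 7 positive and 3 called higher. Of 6 tested endoderm markers, Krt18 and Foxa2 were called lower. The median log2 fold change of the 6 was -0.20, and 2 were positive, Sox17 at 0.42 ± 0.25 (SE) and Cdh1 at 0.16 ± 0.29. The part of these differences between the cultures in the results on the neighbours was not tested. Pluripotency markers summed to at most 41.2 CPM in any library. Mutant library 4 had the fewest counts, and results were also computed without it.

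Tbx1 (ENSMUSG00000009097.10, GRCm38 chromosome 16, 18580979 to 18590671, minus strand) was examined first, as a check of the labels. Counts of Tbx1 were 39, 65, 38 and 22 in parental libraries 1 to 4, against 3, 0, 1 and 0 in mutant libraries 1 to 4. The lines did not overlap, and the mutant level was at least 11.7-fold lower when each mutant library was set to the floor of 3 counts. In edgeR's quasi-likelihood test the log2 fold change, mutant over parental, was -5.08 ± 0.88 (SE), and the p adjusted by Benjamini-Hochberg over all tested genes was 0.00432.

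Promoter sequence was read from RefSeq windows on GRCm38.p6 that run from 250 bases before to 50 bases after a gene's start. Of the 30 genes, 29 had at least 1 window, 37 windows in all. They were richer in G and C than promoters in general, with a median of 64.3% GC against 52.7% over all 32851 windows, and a median of 23 CpG pairs against 7. The GC box GGGCGG, the motif of Sp1-type factors, was present on either strand in 75.7% of the 37 windows and in 35.7% of all windows. The T-box core GGTGTG, also searched on both strands, was in 10.8% of these windows and 19.05% of all, and its longer form GGTGTGA, which contains the core, was in 5.41% against 3.98%. Only Gnb1l and Arvcf held the longer form among the windows of these genes. A match is a description of letters and does not show binding.

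The windows of 5 genes are shown, picked by position, motif or p, and a link between sequence and level was not tested. Gnb1l has the start nearest to Tbx1 among the tested neighbours and, with Arvcf, holds the longer T-box form. The Arvcf window shown is not the one at the gene's start of 18348182. The other Arvcf windows, at chr16:18347932-18348231 and chr16:18380533-18380832, hold neither T-box form. Cldn5 had the smallest p of the neighbours, Slc25a1 the next, and Trmt2a starts head to head with Ranbp1, whose own window covers nearly the same bases on the other strand. Capitals mark GGTGTG or GGTGTGA for Gnb1l and Arvcf, and GGGCGG or its reverse complement CCGCCC for the others. The windows lie at chr16:18498463-18498762 (plus strand, Gnb1l), chr16:18392313-18392612 (plus, Arvcf), chr16:18776597-18776896 (plus, Cldn5), chr16:17928170-17928469 (minus, Slc25a1) and chr16:18248633-18248932 (plus, Trmt2a).
Gnb1l: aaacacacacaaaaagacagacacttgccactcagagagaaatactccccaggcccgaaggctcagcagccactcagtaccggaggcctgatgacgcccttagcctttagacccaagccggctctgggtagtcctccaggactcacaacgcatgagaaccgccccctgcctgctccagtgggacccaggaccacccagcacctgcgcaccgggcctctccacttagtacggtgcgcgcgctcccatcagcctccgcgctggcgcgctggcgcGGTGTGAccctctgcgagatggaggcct
Arvcf: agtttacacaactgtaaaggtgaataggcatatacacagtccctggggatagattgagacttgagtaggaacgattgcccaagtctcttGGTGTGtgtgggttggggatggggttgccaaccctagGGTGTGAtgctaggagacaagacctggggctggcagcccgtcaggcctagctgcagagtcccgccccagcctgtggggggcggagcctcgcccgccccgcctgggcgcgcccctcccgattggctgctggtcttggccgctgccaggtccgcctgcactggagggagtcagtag
Cldn5: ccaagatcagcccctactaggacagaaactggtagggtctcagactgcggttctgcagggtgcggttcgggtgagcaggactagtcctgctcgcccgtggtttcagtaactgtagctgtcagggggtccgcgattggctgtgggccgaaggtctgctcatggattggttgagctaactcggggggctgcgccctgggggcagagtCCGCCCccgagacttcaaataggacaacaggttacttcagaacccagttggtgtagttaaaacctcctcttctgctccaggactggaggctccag
Slc25a1: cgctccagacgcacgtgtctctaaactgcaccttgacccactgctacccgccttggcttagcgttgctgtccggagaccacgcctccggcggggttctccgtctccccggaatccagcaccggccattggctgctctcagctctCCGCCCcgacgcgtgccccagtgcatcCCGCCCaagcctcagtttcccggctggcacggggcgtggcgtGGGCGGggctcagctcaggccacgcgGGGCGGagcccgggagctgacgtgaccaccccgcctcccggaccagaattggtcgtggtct
Trmt2a: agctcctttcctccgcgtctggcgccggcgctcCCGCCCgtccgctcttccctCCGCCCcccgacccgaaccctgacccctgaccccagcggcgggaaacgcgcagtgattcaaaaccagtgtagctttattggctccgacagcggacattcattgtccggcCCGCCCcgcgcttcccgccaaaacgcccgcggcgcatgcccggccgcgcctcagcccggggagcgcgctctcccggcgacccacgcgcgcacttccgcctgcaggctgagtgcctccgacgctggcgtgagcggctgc

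Of the 30 genes, 26 passed the filter on low counts and were tested, and edgeR called 0 of the 26 at an adjusted p below 0.05. Of all 13280 tested genes it called 1.42%, 0.745% higher and 0.67% lower. At an unadjusted p under 0.05 there were 5, of which Cldn5, Scarf2 and Trmt2a were higher and Slc25a1 and Mrpl40 lower in the mutant line. That is 19.2% of the 26 against 11.9% of all tested genes, of which 6.01% were higher and 5.92% lower. With DESeq2 the count of called neighbours was 1 and with limma-voom 0, where 3.05% and 1.9% of tested genes were called. With no filter beyond 1 count it was 2 of 30, where 1.64% of all genes fitted were called. Parental and mutant libraries had no overlap for Cldn5 and Trmt2a, 7.69% of the 26 against 7.52% of all tested genes. The median log2 fold change of the 26 was 0.08, beside 0.0010 over all tested genes and 0.0065 over the 382 other tested genes of chromosome 16. Positive values were seen for 18 of the 26, or 69.2%, against 50.2% of all tested genes. A log2 fold change of at least 1 in size was seen for Slc7a4 alone of the 26, where 1 parental library holds all parental counts, against 6.49% of all tested genes.

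**Figure D1:**
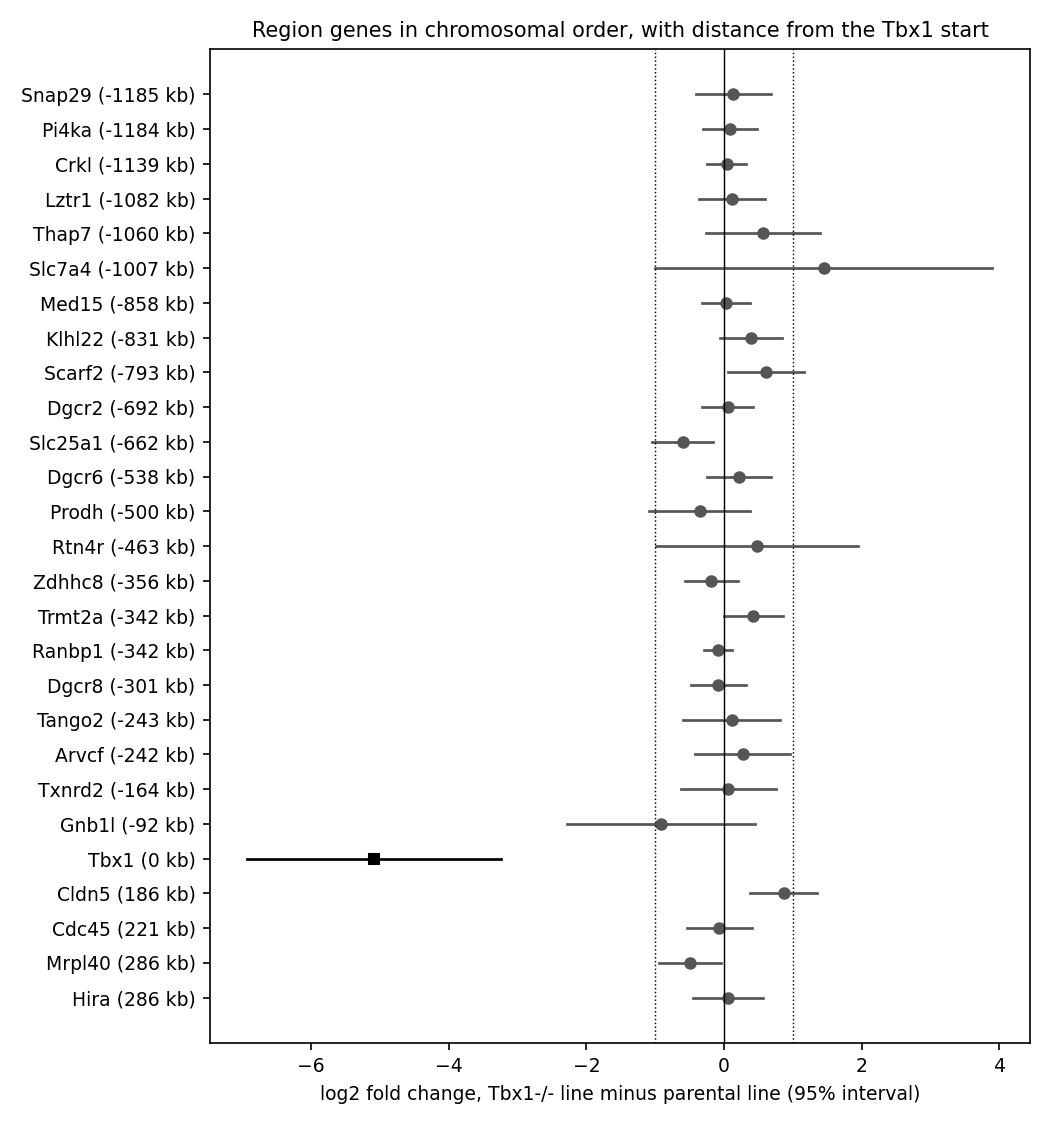
Log2 fold change of Tbx1 (square) and its 26 tested neighbours (circles), in chromosomal order from top to bottom, with the distance of each start from that of Tbx1 in kb. Bars are 95% intervals of the edgeR fit over 4 libraries per line, and dotted lines mark 2-fold changes. Tbx1 lies at -5.08, and the neighbours lie between -0.92 for Gnb1l and 1.45 for Slc7a4.

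The intervals show which sizes of change these libraries leave possible. For 22 of the 26 genes the 95% interval lay wholly above a log2 fold change of -1, the value that a 2-fold lower level would give, against 74.1% of all tested genes. The other 4 were Slc25a1 with a lower bound of -1.04, Prodh with -1.10, Slc7a4 with -1.003 and Gnb1l with -2.28. The interval lay wholly below a 2-fold higher level for 21 of the 26, against 72.1% of all tested genes. For 18 genes, 69.2%, the interval lay within 2-fold in both directions, against 57.8% of all tested genes. Ranbp1, which regulates the Ran GTPase in nuclear transport, had the narrowest interval, from -0.30 to 0.11.

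The summed level of the 26 genes was 1190, 1127, 1211 and 1133 CPM in parental libraries 1 to 4 and 1200, 1229, 1156 and 1086 CPM in mutant libraries 1 to 4. These ranges overlap. Ranbp1 had the highest level of the 26, with a parental mean of 384 ± 23.1 and a mutant mean of 360 ± 26.0 CPM (SD, n = 4). For genes with mean levels of 10 to 100 CPM, the median coefficient of variation within the parental line was 17.4% over 20 of the neighbours and 18.1% over all 7208 tested genes of that range. Within the mutant line it was 22.5% and 22.2%.

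Distance from Tbx1 was examined next. Within 1 Mb of its start lay 26 tested genes, 20 of them listed and 6 not. Of these 26, edgeR called 0, against 1.42% of all tested genes. An unadjusted p under 0.05 was seen for 5, all of them the listed genes named above, against 11.9% of all tested genes. The median log2 fold change was 0.06 for the 16 genes up to 0.5 Mb away, 0.04 for the 10 genes from 0.5 to 1 Mb, 0.09 for the 32 genes from 1 to 2 Mb and -0.0025 for the 51 genes from 2 to 5 Mb. The median absolute log2 fold change in the same order was 0.23, 0.29, 0.17 and 0.24, against 0.24 over all tested genes. None of the 109 tested genes within 5 Mb passed the adjusted threshold in the edgeR test, and 12 had an unadjusted p under 0.05. The shares over all tested genes were again 1.42% and 11.9%.

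**Figure D2:**
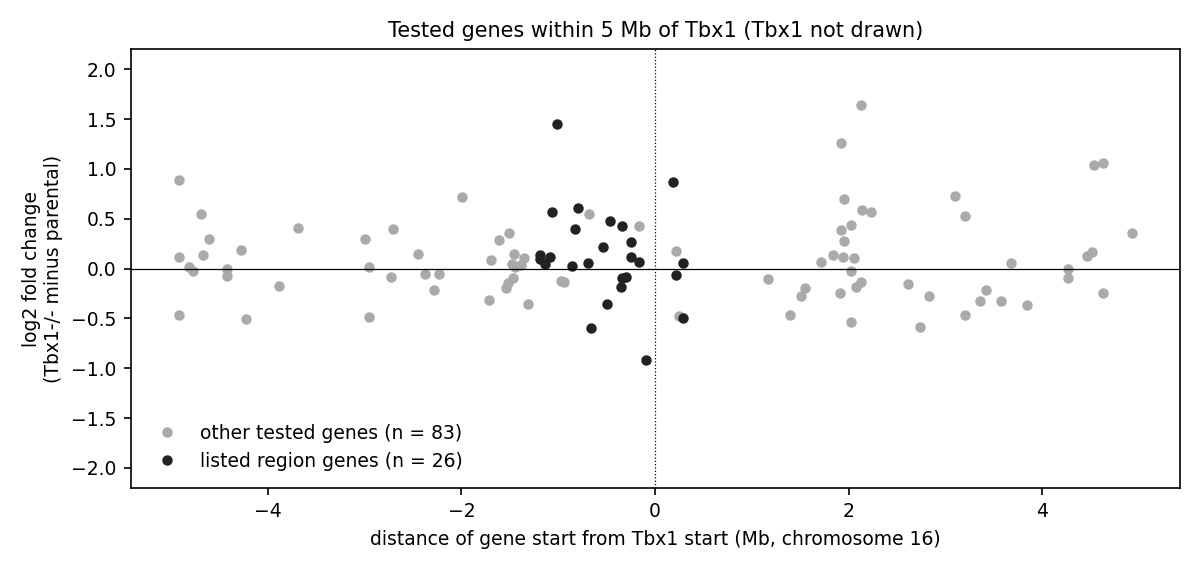
Log2 fold change of the 109 tested genes whose start lies within 5 Mb of that of Tbx1 on chromosome 16, by distance in Mb. Dark points are the 26 listed genes and grey points the 83 others, and the points scatter around 0 on both sides of the locus.

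Among the tested genes of the list nearest to Tbx1, those at lower coordinates are Gnb1l, Txnrd2 and Arvcf. Gnb1l (ENSMUSG00000000884.17, 18498713 to 18566679, plus strand), a WD-repeat protein gene, starts 92.0 kb away. It was measured at 4.73, 6.997, 4.63 and 2.74 CPM in parental libraries and 3.70, 3.27, 0.908 and 2.199 CPM in mutant libraries. The values overlap, and the log2 fold change of -0.92 ± 0.65 (SE), the lowest of the 26, had an edgeR adjusted p of 0.637. With an interval from -2.28 to 0.45, neither a 4-fold fall nor an equal level lies outside it.

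Txnrd2, the mitochondrial thioredoxin reductase, was at 13.8, 10.0, 9.10 and 12.2 CPM in the parental libraries, against 10.2, 8.06, 13.3 and 15.7 CPM in the mutant ones, with a log2 fold change of 0.06 ± 0.33. Arvcf, a catenin of adherens junctions, was at 10.5, 9.51, 16.1 and 11.4 CPM against 13.6, 15.3, 8.54 and 20.3 CPM, with 0.27 ± 0.33. For both genes the ranges of the lines overlapped widely. The T-box letters in the Gnb1l window and in a single Arvcf window stood beside estimates of opposite sign, neither past the threshold. The core alone was in windows of Thap7 and Dgcr6, with log2 fold changes of 0.56 ± 0.40 and 0.22 ± 0.22. A link between motif and level was not tested.

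On the other side the nearest tested genes of the list are Cldn5, Cdc45 and Mrpl40. Cldn5 (ENSMUSG00000041378.2, 18776847 to 18778262, plus strand) starts 186 kb from Tbx1. Its levels were 40.9, 39.5, 25.1 and 25.3 CPM in parental libraries 1 to 4 and 88.0, 43.6, 53.0 and 53.1 CPM in mutant libraries 1 to 4. Each mutant library was above each parental one, with means of 32.7 ± 8.69 and 59.4 ± 19.6 CPM (SD, n = 4). The log2 fold change was 0.87 ± 0.23 (SE; 95% interval 0.38 to 1.35), with an unadjusted p of 0.00149 and an adjusted p of 0.0773 in the edgeR test. The call therefore missed the threshold, but it passed with DESeq2 (adjusted p = 0.0218), and over all alternatives the adjusted p ran from 0.00125 to 0.283. Leaving out mutant library 1, the highest, gave 0.60 with an edgeR adjusted p of 0.283, and leaving out mutant library 2 gave 0.98 with 0.0473.

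Cldn5 is a marker of endothelial cells, and the endothelial genes were therefore measured beside it. The list of 20 such genes, Cldn5 not among them, summed to 842 to 1330 CPM in the parental and 1013 to 1772 CPM in mutant libraries, with overlap (two-sided exact permutation test on log2 values, p = 0.429, n = 4 per line). Of the 19 tested, 17 had positive log2 fold changes, against 50.2% of all tested genes. The median of the 19 was 0.34, and 1 was called higher. That gene was Fli1, an ETS factor of endothelial and blood cells, at 0.95 ± 0.18 with an edgeR adjusted p of 0.00966. None of the 20 was at 0 in either line. The summed erythroid markers given above were also higher in every mutant library. In bulk RNA, more cells of a type and more RNA per cell cannot be told apart.

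As a share of the endothelial sum, Cldn5 stood at 3.07%, 3.68%, 2.96% and 3.00% in parental libraries and 4.97%, 4.30%, 4.94% and 5.03% in mutant libraries. The means were 3.18% ± 0.34 and 4.81% ± 0.34 (SD, n = 4), without overlap, and the two-sided exact permutation p of 0.0286 is the smallest that 4 against 4 libraries allow. The difference was 0.60 on the log2 scale, 0.45 when each endothelial gene had equal weight, and 0.57 to 0.67 without single libraries. The share does not depend on how libraries are scaled, but the equal-weight form had 0.5 CPM added to each level. Both were computed after the values of Cldn5 had been seen.

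**Figure D3:**
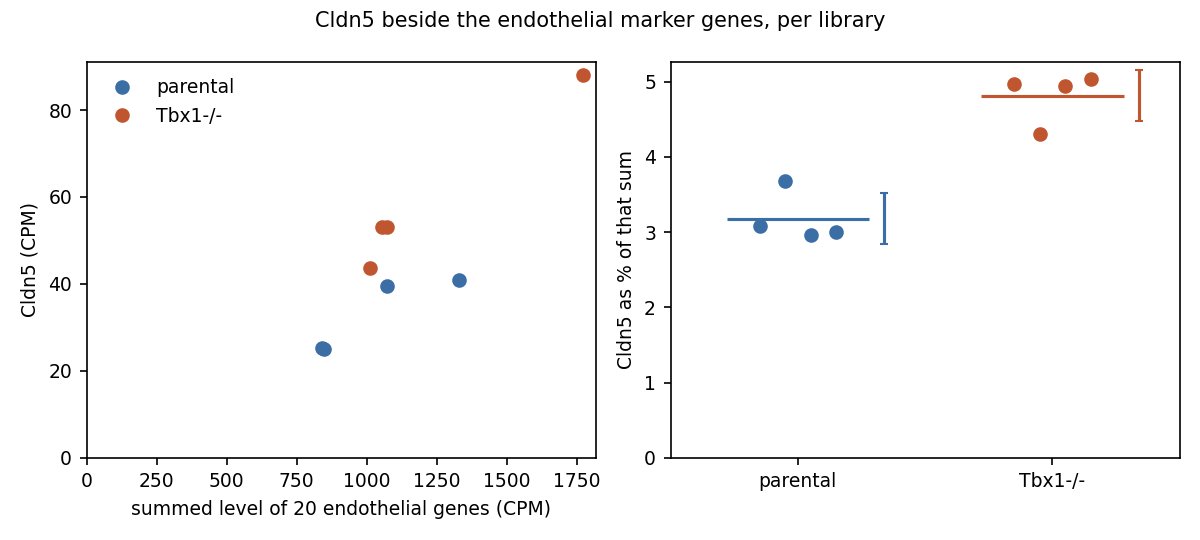
Left, Cldn5 level in CPM against the summed CPM of 20 endothelial genes in each of 8 libraries. Right, Cldn5 as a percentage of that sum in each library, with the mean (line) and SD (bar) of 4 libraries per line. All 4 mutant libraries (4.30% to 5.03%) lie above all 4 parental ones (2.96% to 3.68%).

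Cdc45, a subunit of the replicative helicase, was at 30.003, 22.1, 36.5 and 28.7 CPM in the parental libraries, against 19.3, 31.6, 30.2 and 31.3 CPM in the mutant ones, with a log2 fold change of -0.07 ± 0.23. The values overlapped. Of 14 genes for other helicase subunits, loading factors and the sliding clamp, 0 were called in either direction, 6 were positive, and their median log2 fold change was -0.01. The smallest p among them was that of the helicase subunit Mcm7, at -0.27 ± 0.15 on the log2 scale (edgeR adjusted p = 0.497).

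Mrpl40 (ENSMUSG00000022706.16, 18872018 to 18876862, minus strand), a protein of the large mitochondrial ribosomal subunit, was at 38.2, 42.3, 52.5 and 42.8 CPM in parental libraries. In mutant libraries 1 to 4 it was at 43.2, 29.4, 30.9 and 20.6 CPM. Mutant library 1 lay inside the parental range and the other three below it. The log2 fold change was -0.49 ± 0.22 with an unadjusted p of 0.0335 and an edgeR adjusted p of 0.359.

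Slc25a1 (ENSMUSG00000003528.15, 17925223 to 17928219, minus strand) encodes the carrier that exports citrate from mitochondria. It was at 96.2, 92.2, 108 and 77.5 CPM in parental libraries, and at 44.2, 100 and 53.2 CPM in mutant libraries 1 to 3 and 50.0 CPM in mutant library 4. Mutant library 2 lay inside the parental range and the other three below it. The log2 fold change of -0.60 ± 0.21 had an unadjusted p of 0.0107 and an edgeR adjusted p of 0.215. Leaving out mutant library 2 moved it to -0.94 with an edgeR adjusted p of 0.00564. With all libraries and no filter beyond 1 count it was -0.61 with an edgeR adjusted p of 0.0132. The call thus turned on that library and on the filter.

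Prodh, the first enzyme of proline breakdown, had a log2 fold change of -0.36 ± 0.35, and Tango2, a gene whose loss causes metabolic crises, 0.11 ± 0.34. Of the 5 tested genes of this group, 3 were negative, 0 were called by edgeR, and the group median was -0.36. The sixth, Aifm3, which encodes a relative of apoptosis-inducing factor, fell below the count filter. Counts of Aifm3 were 10, 5, 9 and 12 in parental libraries 1 to 4 and 0, 2, 0 and 0 in mutant libraries 1 to 4.

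The lines did not overlap for Aifm3, which was true of 1.18% of the 13470 genes with counts below the filter and of 7.52% of all tested genes. Absence of overlap needs a count in every library of 1 line, so genes with very few counts cannot show it. The share of 1.18% is therefore low by construction and does not say how rare the pattern of Aifm3 is. Over the line totals of 36 and 2 counts, the parental level was 16.04-fold the mutant one, with an exact 95% interval of 4.13 to 138 that covers counting error only. The two-sided exact permutation test gave p = 0.0286, the smallest possible with 4 against 4, which the absence of overlap already fixes. Fitted without the filter, edgeR gave an adjusted p of 0.495. There were 205 genes with a parental mean of 7 to 11 counts and at least 5 in each parental library. Of these, 2, or 0.976%, had at most 2 counts in every mutant library, Aifm3 among them. Those count limits were set around the values of Aifm3, so the share is no test of it.

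**Figure D4:**
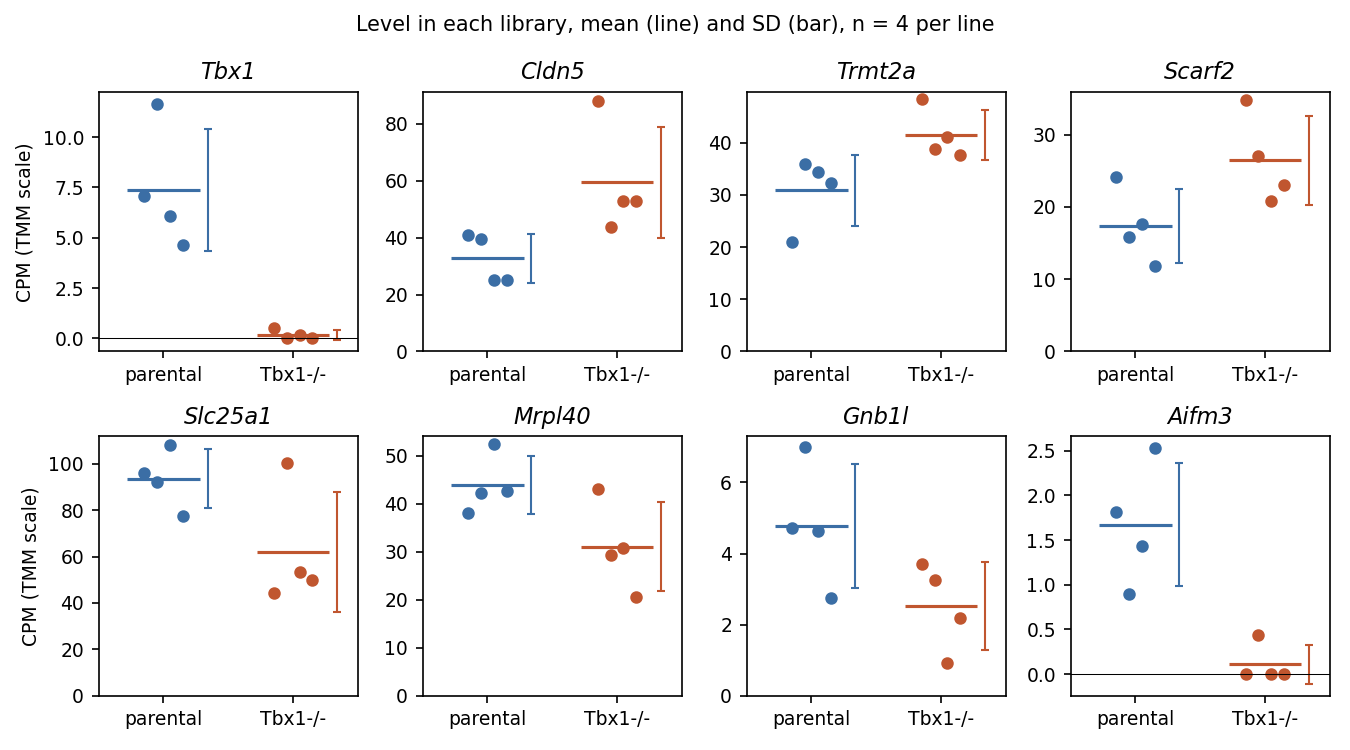
Level in CPM of Tbx1 and 7 of its neighbours in each of 4 parental and 4 mutant libraries, with the mean (line) and SD (bar). Cldn5 and Trmt2a were higher and Aifm3 lower in every mutant library than in any parental one. Single libraries reached into the other line's range for Slc25a1 (mutant library 2) and Mrpl40 (mutant library 1).

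Among the genes of nuclear proteins, Trmt2a (ENSMUSG00000022721.19, 18248679 to 18254772, plus strand), a tRNA methyltransferase, was at 20.9, 35.9, 34.5 and 32.2 CPM in parental libraries. Mutant libraries had 48.4, 38.8, 41.0 and 37.7 CPM, each above each parental value. The log2 fold change was 0.43 ± 0.20 with an unadjusted p of 0.0487 and an edgeR adjusted p of 0.416. In this group of 7 tested genes, 4 were positive, 0 were called by edgeR, and the median was 0.03.

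Hira, Dgcr8 and the Mediator subunit Med15 had log2 fold changes of 0.06 ± 0.24, -0.08 ± 0.19 and 0.03 ± 0.17. Their 95% intervals lay between -0.48 and 0.57, so that changes of 2-fold were outside them. Thap7, a zinc finger repressor, had 0.56 ± 0.40. Of 7 genes for the Hira complex, histone chaperones and its histone, edgeR called 0, with Ubn1 the smallest p at 0.21 ± 0.15 (adjusted p = 0.643). Of 6 genes of microRNA processing, edgeR also called 0. Among these the argonaute Ago2 was at 0.17 ± 0.10 and Drosha at -0.16 ± 0.14, with edgeR adjusted p of 0.562 and 0.724.

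Of the 7 tested genes for membrane, junction and receptor proteins, 6 were positive, against 50.2% of all tested genes, and edgeR called 0. The median of 0.48 is the value of Rtn4r, whose sign changed without mutant library 1. Scarf2 (ENSMUSG00000012017.4, 17797282 to 17808293, plus strand), a scavenger receptor family protein, was at 24.2, 15.8, 17.7 and 11.8 CPM in the parental libraries, against 34.8, 27.0, 20.9 and 23.1 CPM in the mutant ones. Only parental library 1 reached into the mutant range. The log2 fold change of 0.61 ± 0.26 had an unadjusted p of 0.0333 and an edgeR adjusted p of 0.359. Dgcr2, an adhesion receptor, and the palmitoyltransferase Zdhhc8 had 0.05 ± 0.18 and -0.18 ± 0.18. The Nogo receptor Rtn4r and the transporter Slc7a4 were both under 10 CPM in all libraries, and their log2 fold changes of 0.48 ± 0.70 and 1.45 ± 1.17 were not resolved at this depth. Slc7a4 had 18, 0, 0 and 0 counts in the parental libraries and 21, 11, 11 and 4 in the mutant ones, so its fold rests on parental library 1. Without that library the fitted value was 6.57, against a group at 0 and so no bound, and it was 3.38 with limma-voom and 3.19 with the replicate block, with adjusted p from 0.112 to 0.879 over all alternatives.

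The other 2 genes of this group did not pass the filter. Gp1bb, a platelet receptor subunit and the listed gene nearest to Tbx1, at 31.7 kb, had 2 counts in parental library 2 and 0 in the other seven. In the annotation, 91.1% of its exonic bases are shared with other genes on the same strand, Sept5 and the readthrough model Gm49601, and both of these had 0 counts in all 8 libraries. How reads that match several genes were treated is not given in the sources used here, so the counts say little about any of these genes. Markers of megakaryocytes and platelets, a list of 10, summed to 14.4 to 28.9 CPM in the parental and 31.7 to 39.9 CPM in mutant libraries, with Gp6 and Tubb1 at 0 in both lines. The ion channel gene P2rx6 had at most 15 counts in any library, with 20 in all parental and 14 in all mutant libraries together.

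Of the 6 signalling, trafficking and ubiquitin adaptor genes, Gnb1l included, 5 were positive, against 50.2% of all tested genes. The edgeR test called 0 of them, and their median was 0.10. Crkl was at 88.5 ± 8.71 CPM (SD, n = 4) in the parental line and 91.2 ± 10.4 CPM (SD, n = 4) in the mutant line, and its 95% interval for the log2 fold change ran from -0.24 to 0.33. The lipid kinase Pi4ka had 0.09 ± 0.19, the SNARE protein gene Snap29 0.14 ± 0.26, and Lztr1, an adaptor that directs RAS proteins to degradation, 0.12 ± 0.23. Klhl22, another ubiquitin ligase adaptor, had 0.39 ± 0.21 with an unadjusted p of 0.0803. Dgcr6 had 0.22 ± 0.22, and Serpind1, the liver-derived heparin cofactor, was below the filter with 4, 5, 0 and 0 counts in mutant libraries and 0 in each parental one.

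Other genes of the interval that are not among the 30 were also measured. Of 24 symbols, older names among them, 13 were tested, 0 were called by edgeR in either direction and 9 were positive, with a median of 0.04. The shares over all tested genes, for these and for the gene groups above, were 1.42% called and 50.2% positive. At that share of calls, 0 among so few genes says little. Among the 13, 2510002D24Rik and Top3b had log2 fold changes of -0.47 ± 0.24 and -0.32 ± 0.16, each with an edgeR adjusted p of 0.449. For Top3b every mutant library lay below every parental one, as the lines did not overlap for 7.52% of all tested genes. Its means were 62.3 ± 3.70 CPM in the parental and 49.9 ± 7.59 CPM in the mutant line (SD, n = 4).

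Several neighbours start head to head, within 1000 bases of a gene on the other strand, and such a pair can be compared within a library. Each level had 0.5 CPM added before the ratio was taken, so scaling does not cancel fully. There were 6 pairs with both genes tested and at least 1 listed. The log2 ratio of Trmt2a to Ranbp1 was -4.11, -3.30, -3.52 and -3.64 in parental libraries and -2.84, -3.26, -3.22 and -3.11 in mutant libraries. It differed by 0.54 without overlap (two-sided exact permutation p = 0.0286, the smallest possible, and 0.171 after Benjamini-Hochberg adjustment over the 6 pairs). For Hira to Mrpl40, whose starts are 175 bases apart, the difference was 0.60 with overlap (exact permutation p = 0.171). None of the 6 pairs passed after adjustment. These pairs were chosen after the values were seen.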

How the data were processed

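Per the labels' protocols, polyA RNA from 8 cultures was made into QuantSeq 3′ libraries. The deposited values are whole-number counts per gene, which the authors made with STAR and featureCounts on mm10, per the submitters' processing notes; versions and the handling of reads that match several genes are not given in the sources used here. Groups and replicate numbers came from the sample titles. Of the 55487 identifiers, 55227 were given a symbol from GENCODE M21 (GRCm38). The members and gene lists were chosen with earlier results of these data known. All genes were fitted together with edgeR 4.0.16 in R 4.3.3 (filterByExpr, TMM scaling, quasi-likelihood F test, two-sided, Benjamini-Hochberg adjustment over 13280 tested genes, threshold 0.05). The tested genes held 99.46% of counts. SE is the log2 fold change divided by the root of F. Exact permutation tests enumerated 70 assignments of libraries. Counting intervals and the floor of 3 counts cover counting error only. DESeq2 1.42.0, limma-voom 3.58.1, other scalings and filters, a replicate block and leaving out each library were alternatives. The fit was tested on simulated data. Values in every library were given for tested listed genes with an unadjusted p under 0.05 or without overlap between the lines. They were also given for the 3 nearest tested genes of the list on each side of Tbx1. Other genes named singly, Aifm3 among them, were chosen after their values were seen. The values of 1 gene of the interval outside the 30 are not reported here.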

Additional observations from a re-analysis of the deposited data

Results flagged for a closer look

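Of 52 groups of 4 libraries, 4 held a library far from the rest by Dixon's criterion, where chance gives about 1 group in 20. Slc25a1 stood at 100.2 CPM in mutant library 2, and Cdc45 at 19.3 CPM in mutant library 1. Thap7 stood at 12.5 CPM and Slc7a4 at 3.27 CPM in parental library 1. Slc7a4 had 0 counts in the other parental libraries, so any count in parental library 1 would have been flagged. The rate by chance does not apply to that group.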

How the results depend on the processing

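The count of listed genes past the adjusted threshold, 0 of 26 in the edgeR test, was 2 with no filter beyond 1 count (Cldn5 and Slc25a1), and 1 (Cldn5) with DESeq2, with the replicate block and with the bias-adjusted quasi-likelihood of edgeR 4, the last chosen after seeing the data. Genes within 1 Mb of Tbx1 gave 2, 1, 1 and 1 under the same settings. Leaving out single libraries gave 0 to 2 for both counts, with 2 only without mutant library 2. Over all genes the count of 188 became 439 with no filter, 405 with DESeq2, 314 with the bias-adjusted test and 86 at an adjusted p under 0.01, and 103 to 235 without single libraries. Same-numbered libraries had correlations of deviations from -0.033 to 0.102, and the other combinations from -0.078 to 0.062. These values cannot decide whether same-numbered cultures were run together, and the block gave 234 calls over all genes. The listed genes without overlap numbered 2 to 5 without single libraries, 5 without parental library 1, and those whose interval lay above a 2-fold lower level 20 to 24. Absence of overlap is met more easily with fewer libraries, and no share over all tested genes was taken for these settings. The median log2 fold change of the listed genes ran from 0.048 with no filter beyond 1 count to 0.11 without mutant library 4. No sign changed under another scaling, filter or tool. Without single libraries, signs changed for Dgcr2 (-0.10 to 0.17), Dgcr8 (-0.18 to 0.036), Hira (-0.11 to 0.18), Cdc45 (-0.19 to 0.076), Txnrd2 (-0.10 to 0.20), Tango2 (-0.13 to 0.24), Rtn4r (-0.18 to 0.84), Crkl (-0.033 to 0.082), Med15 (-0.073 to 0.15) and Lztr1 (-0.059 to 0.26). Slc25a1 had adjusted p from 0.00564 to 0.474 and Tbx1 from 8.99e-06 to 0.0457 over all alternatives. Intervals of Gnb1l, Rtn4r, Thap7 and Slc7a4, the tested listed genes of lowest parental level, reached past a 2-fold change in at least 1 direction. The same held for Prodh, Scarf2, Cldn5 and Slc25a1, with parental means of 10.7, 17.4, 32.7 and 93.6 CPM.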
